A study of Homo sapiens with 3 samples.

Results

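DNA damage repair genes were examined in human C4-2B prostate cancer cells and in a pair of drug-resistant sublines. The genes were taken from a list of 36 symbols covering homologous recombination, the Fanconi pathway, mismatch repair, end joining, damage kinases and single-strand break repair. All probe sets annotated to a listed symbol were used. Of the 36 genes, 33 were read by 77 probe sets that carry no other gene, out of 19775 genes measured in this way. PMS2 was read only by 2 probe sets shared with PMS2CL, and FANCA and FANCD2 were not analysed here. C4-2B, an established castration-resistant line, descends from LNCaP cells. C4-2B parental cells carried no drug label, C4-2B MDVR cells were kept in 20 µM enzalutamide, which blocks the androgen receptor, and C4-2B AbiR cells in 10 µM abiraterone acetate, which inhibits androgen synthesis. All 3 lines were grown in RPMI medium with serum and antibiotics, and per the study's methods the parental cells were passaged beside the sublines. Each subline is a single selected line, and each of the 3 lines was hybridized to 1 Affymetrix array, so that selection, drug in the medium and array cannot be told apart.

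Double-strand breaks are repaired either by homologous recombination, which copies an intact sister chromatid, or by end joining, which ligates the ends directly. Fanconi proteins remove crosslinks between the strands, mismatch repair corrects replication errors, and the kinases ATM and ATR signal damage to CHEK2 and CHEK1. Loss of recombination can leave tumour cells open to PARP inhibitors. Many genes of recombination and of the Fanconi pathway are transcribed mainly in dividing cells, and androgen receptor signalling is known to raise the transcription of repair genes in prostate cancer cells.

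Values are log2 values from RMA, a method that corrects background, normalizes arrays and combines the probes of a probe set. The authors had centred them for each probe set, so that only differences between arrays could be read and no expression level was left. For the same reason the prostate identity of the cells could not be checked by marker levels. The mean of the probe sets stands for a gene, and ± is the SD between its probe sets, a technical spread. There were no replicates and no test. Over 45 spiked control probe sets the difference had an SD of 0.13 when MDVR was set against parental cells, 0.10 when AbiR was, and 0.12 between the sublines, with largest sizes of 0.35, 0.20 and 0.34. These controls are added to the sample during processing and hold none of the variation between cultures. Fewer cells of a type and less RNA per cell cannot be told apart in such bulk samples.

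Large differences were few among the repair genes, as they were among all genes. In C4-2B MDVR cells, 1 of 33 genes, LIG4, was at least 2-fold lower than in parental cells, beside 1.67% of all genes, and 0 were at least 2-fold higher, beside 1.65%. At 1.5-fold, LIG4 and BARD1 were lower, against 5.15% of all genes, and 0 were higher, against 4.81%. In C4-2B AbiR cells, 0 genes were at least 2-fold lower or higher, where 0.804% and 1.07% of all genes were. BARD1 was the 1 gene at least 1.5-fold higher (3.32% of all genes), and 0 were at least 1.5-fold lower (2.52%). Between the sublines, BARD1 was at least 2-fold lower in MDVR than in AbiR, where 1.13% of all genes were at least 2-fold and 3.96% at least 1.5-fold lower. In the other direction 0 of the 33 were past 2-fold or 1.5-fold (0.875% and 2.77% of all genes). The sizes were close to those of other genes, with a median absolute difference of 0.18 in MDVR and 0.13 in AbiR, against 0.17 and 0.13 over all genes.

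The differences leaned below 0. Of the 33 genes, 19 were below 0 in MDVR, against 42.4% of all genes, and 22 were below 0 in AbiR, against 52.4%. Between the sublines, 13 were lower in MDVR than in AbiR, against 39.9%. The median difference was −0.087 in MDVR, beside 0.044 over all genes, and −0.11 in AbiR, beside −0.011. Among the 21 repair genes with 2 or more probe sets, all probe sets were lower in MDVR for 8 genes (38.1%) and higher for 0. Of all such genes, 19.7% and 29.3% were lower or higher throughout. In AbiR, 6 genes (28.6%) were lower throughout, close to the 26.4% of all genes, and 1 (4.76%) was higher, beside 21.6%. For MDVR minus AbiR the counts were 3 (14.3%) and 2 (9.52%), beside 16.2% and 28.5%. The comparisons of MDVR and AbiR with parental cells share the parental array, so their directions are not independent.

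**Figure D1:**
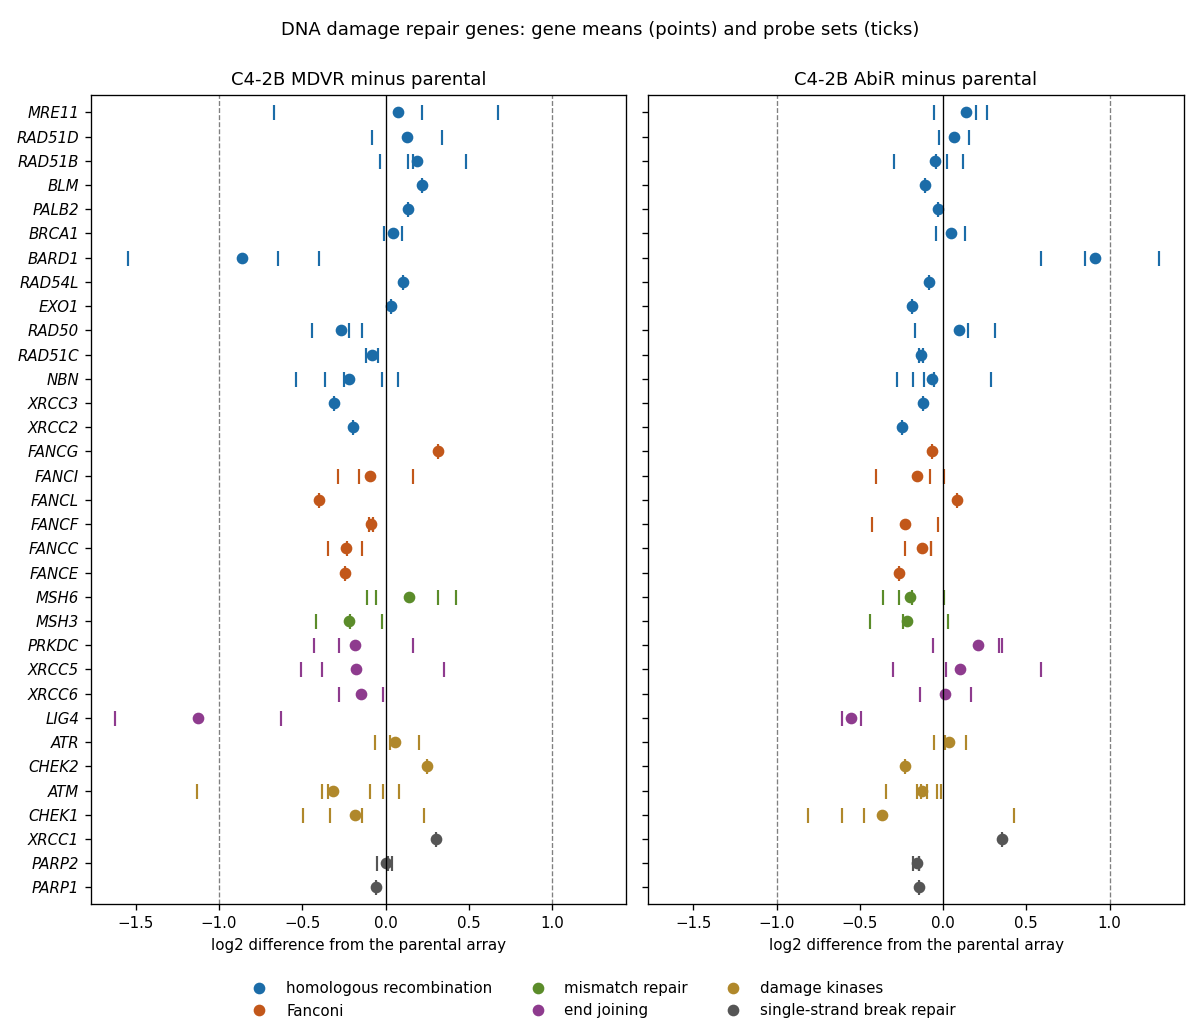
The x axis gives the log2 difference from parental cells for 33 DNA damage repair genes (y axis, coloured by pathway) in C4-2B MDVR on the left and C4-2B AbiR on the right. Large points are gene means, ticks are single probe sets, and dashed lines mark 2-fold. LIG4 lies at −1.13 and −0.55, BARD1 at −0.86 and 0.91, and the means of the other genes stay inside 1.5-fold.

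Homologous recombination had 14 genes, with medians of 0.041 in MDVR and −0.058 in AbiR. BARD1, the partner with which BRCA1 forms an E3 ubiquitin ligase, separated the sublines. Probe set 205345_at was at −0.51 in parental, −0.91 in MDVR and 0.79 in AbiR cells. Probe set 227545_at was at −0.43 in parental, −1.07 in MDVR and 0.43 in AbiR cells. Probe set 242655_at was at −0.29 in parental, −1.84 in MDVR and 0.29 in AbiR cells. All 3 were lowest on the MDVR array and highest on the AbiR array, with the parental array between them. From parental to MDVR the probe sets differed by −0.40, −0.65 and −1.55, so that 1 of the 3 was past 2-fold. The difference was −0.86 ± 0.60 in MDVR, where 2.30% of genes had a lower value, and 0.91 ± 0.36 in AbiR, where 1.32% had a higher one. MDVR minus AbiR was −1.78 ± 0.33, a 3.43-fold difference, and 0.253% of all genes were lower.

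The 250 bases before the outermost start of BARD1 are shown because, of the 33 genes, it differed most between the sublines. They are given 5′ to 3′ on the strand of BARD1, the minus strand, and lie at chr2:214809684-214809933 of the GRCh38.p14 build, as RefSeq gives them, with matches to the GC box (GGGCGG on either strand) in capitals.
BARD1: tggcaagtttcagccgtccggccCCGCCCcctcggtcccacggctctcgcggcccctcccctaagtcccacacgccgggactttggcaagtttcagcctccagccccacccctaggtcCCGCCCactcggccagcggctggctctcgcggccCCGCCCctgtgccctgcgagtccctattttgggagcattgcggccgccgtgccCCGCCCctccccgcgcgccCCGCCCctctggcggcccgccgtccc
The 5 GC boxes are the only matches among the motifs searched in this window. A GC box was found in 42.2% of 27305 such windows over all genes and in 21 of the 29 repair genes. LIG4, FANCE and XRCC2 had the lowest means of both lines among genes with all probe sets on one side of 0. The window of LIG4 held no GC box, and those of FANCE and XRCC2 held 5 and 3, of which 2 in XRCC2 overlap. The E2F motif (TTTCCCGC, TTTGGCGC, TTTCGCGC or TTTGCCGC on either strand) was found in 2 of the 29, FANCC and MSH3, against 2.78% of all windows. TTTGAA, the core of the CHR element of mitotic genes, was found in 3 against 13.6% (either strand). The CCAAT box (CCAAT on either strand) was found in 12 against 33.0%, and GCATGCGC, the core that the factor NRF1 recognizes, in LIG4 and XRCC2, against 2.83%. The motifs do not overlap each other in the windows shown, and a match is a description of letters and not of a bound site.

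Around BARD1, 10 measured genes were read, 5 on each side in order of start, whatever their distance. Their median difference was −0.010 in MDVR and 0.20 in AbiR. ABCA12, a lipid transporter gene and the next measured gene on one side, was at −0.018 and 1.04, and CPS1, a urea cycle enzyme gene, at −0.45 and 0.64. SPAG16, the next on the other side, was at 0.65 and 0.21, so the genes around BARD1 did not share 1 direction in MDVR. FN1, which encodes the matrix protein fibronectin, was the highest of the 10 in both lines, at 1.40 and 1.09. In AbiR, 8 of the 10 were above 0, where 52.4% of all genes were below 0. ABCA12, CPS1, SPAG16 and FN1 were named after their values were seen.

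BRCA1 itself had differences of 0.047 ± 0.076 in MDVR and 0.046 ± 0.12 in AbiR, and PALB2, a partner of BRCA1 in recombination, of 0.14 and −0.032 by its single probe set. Both lay near 0, apart from BARD1. XRCC2, XRCC3, RAD51B, RAD51C and RAD51D act in the strand exchange steps of recombination. XRCC2 was at −0.20 and −0.24 and XRCC3 at −0.31 and −0.12, each by 1 probe set and below 0 in both lines. RAD51C was at −0.081 ± 0.049 and −0.13 ± 0.017, with both probe sets below 0 in each line. RAD51B was at 0.19 ± 0.22 and −0.049 ± 0.18, and RAD51D at 0.13 ± 0.29 and 0.066 ± 0.13. These 5 genes did not go one way. RAD54L, a motor protein of strand exchange, was at 0.11 in MDVR and −0.084 in AbiR. The helicase gene BLM was at 0.22 and −0.11. The end-resecting exonuclease gene EXO1, which also serves mismatch repair, was at 0.034 and −0.18. All 3 were above 0 in MDVR and below 0 in AbiR, each by 1 probe set. RAD54L in both lines and EXO1 in MDVR differed by less than the SD of the spiked controls, 0.13 and 0.10.

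MRE11, RAD50 and NBN encode the complex that binds broken ends first. RAD50 was at −0.27 ± 0.16 in MDVR and 0.097 ± 0.24 in AbiR over 3 probe sets, all of them below 0 in MDVR. NBN was at −0.22 ± 0.25 and −0.067 ± 0.21 over 5 probe sets that went both ways. The probe sets of MRE11 split in MDVR. Probe set 205395_s_at was at −0.099 in parental, 0.58 in MDVR and 0.099 in AbiR cells. Probe set 242456_at was at 0.13 in parental, −0.54 in MDVR and 0.075 in AbiR cells. Probe set 211334_at was at −0.11 in parental, 0.11 in MDVR and 0.16 in AbiR cells. The first was highest and the second lowest on the MDVR array, so the MRE11 mean of 0.073 ± 0.68 in MDVR describes none of them, and its mean in AbiR was 0.14 ± 0.17.

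The listed Fanconi genes lay mostly below 0 in both lines. Of 6 measured, 5 were below 0 in each line, beside 42.4% of all genes in MDVR and 52.4% in AbiR. Their medians were −0.17 in MDVR and −0.14 in AbiR. All their differences were under 1.5-fold, and some were smaller than the SD of the spiked controls, 0.13 and 0.10. The 10 other Fanconi genes described below did not share this direction, with 4 below 0 in each line and medians of 0.11 and 0.056. In the core complex, which loads ubiquitin onto its targets at a crosslink, FANCC was at −0.24 ± 0.10 and −0.12 ± 0.089, with all 3 probe sets below 0 in both lines. FANCE, the subunit that bridges the core complex to its substrate, was at −0.24 and −0.26, and FANCF, an adaptor subunit, at −0.087 ± 0.015 and −0.23 ± 0.28. FANCL, the ubiquitin ligase of the complex, was at −0.40 in MDVR, the lowest of the group, and at 0.086 in AbiR. FANCG, another core subunit, was at 0.32 and −0.065. FANCI, one of the ubiquitinated proteins, was at −0.091 ± 0.23 and −0.16 ± 0.22. The spread over its 3 probe sets covered 0 in both lines. FANCE, FANCG and FANCL were each read by 1 probe set.

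Mismatch repair was read by 2 genes with 7 probe sets in all. MSH6, which recognizes single mismatches, was at 0.14 ± 0.27 in MDVR and −0.20 ± 0.16 in AbiR over 4 probe sets. Its probe set 202911_at was at −0.091 in parental, 0.33 in MDVR and −0.35 in AbiR cells, and 211450_s_at at −0.072 in parental, 0.24 in MDVR and −0.43 in AbiR cells. In both, MDVR was the highest and AbiR the lowest array, whereas 1569034_a_at and 211449_at differed by less between MDVR and parental, at −0.060 and −0.11. MSH3, which recognizes small loops, was at −0.22 ± 0.20 and −0.22 ± 0.23. The 2 probe sets shared by PMS2, a mismatch repair endonuclease, and the related sequence PMS2CL were higher in both lines, by 1.13 and 0.59 in MDVR and by 0.26 and 0.22 in AbiR. They cannot be assigned to PMS2. The median of MSH3 and MSH6 was −0.037 for MDVR and −0.21 for AbiR.

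End joining held the largest difference from parental among the 33 genes. LIG4 encodes the ligase that seals the ends. Its probe set 206235_at was at 0.52 in parental, −0.10 in MDVR and −0.085 in AbiR cells. Probe set 227766_at was at 0.48 in parental, −1.15 in MDVR and −0.018 in AbiR cells. Both were highest on the parental array, 227766_at was lowest in MDVR, and 206235_at was nearly level between the sublines. Taken alone, 206235_at differed by −0.63 in MDVR, under 2-fold, and 227766_at by −1.62. LIG4 was 2.18-fold lower in MDVR (−1.13 ± 0.70), where 1.21% of genes were lower, and 1.47-fold lower in AbiR (−0.55 ± 0.081), where 2.82% were. MDVR minus AbiR was −0.57 ± 0.79, so that the spread between the probe sets exceeded the difference between the sublines.

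Several repair genes start back to back with another gene, on the opposite strand. By the outermost start that RefSeq annotation of GRCh38.p14 gives, 8 of 29 genes with a start in that table had a measured neighbour of this kind within 1000 bases. The closest pair was LIG4 and ABHD13, which encodes a hydrolase domain protein, with 42 bases between the starts. The stretch is shown because LIG4 and ABHD13 had the largest differences of the 8 pairs in MDVR. It lies at chr13:108218350-108218391, is given 5′ to 3′ on the strand of LIG4, and has in capitals the 1 match to GCATGCGC, the NRF1 core.
LIG4 to ABHD13: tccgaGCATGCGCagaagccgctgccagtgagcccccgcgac
ABHD13 probe set 234993_at was at 0.30 in parental, −0.62 in MDVR and −0.14 in AbiR cells. Probe set 235348_at was at 0.32 in parental, −1.45 in MDVR and 0.054 in AbiR cells. Both were highest on the parental array and lowest on the MDVR array. On average ABHD13 differed from parental by −1.34 in MDVR and by −0.35 in AbiR, beside −1.13 and −0.55 for LIG4. Around LIG4, 10 measured genes were read, 5 on each side in order of start, and the 9 besides ABHD13 lay from −0.099 to 1.27 in MDVR. In AbiR, 8 of the 10 were below 0, beside 52.4% of all genes. EFNB2 was at 1.27 in MDVR and −0.60 in AbiR, and IRS2 at 0.61 and −0.36, so both were lower than ABHD13 in AbiR. EFNB2 and IRS2 were named after their values were seen.

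In MDVR, differences in the other 7 pairs were smaller than for LIG4 and ABHD13. BRCA1 and NBR1 were at 0.047 and 0.42 in MDVR, CHEK2 and HSCB at 0.25 and −0.29, and ATM and NPAT at −0.31 and −0.047. In AbiR the same pairs were at 0.046 and 0.38, −0.23 and −0.31, and −0.13 and 0.15. In MRE11 and ANKRD49 the MDVR values were 0.073 and 0.25, and the AbiR values 0.14 and 0.15. The MRE11 mean in MDVR has an SD of 0.68 over probe sets on both sides of 0, so it gives the pair no shared direction. XRCC3 and ZFYVE21 were below 0 throughout, with −0.31 and −0.014 for MDVR, and −0.12 and −0.068 for AbiR. For PALB2 and DCTN5 the MDVR values were 0.14 and −0.019, and the AbiR values −0.032 and −0.052. XRCC6 and DESI1 lay on opposite sides of 0, with −0.15 and 0.17 for MDVR, and 0.013 and −0.30 for AbiR.

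**Figure D2:**
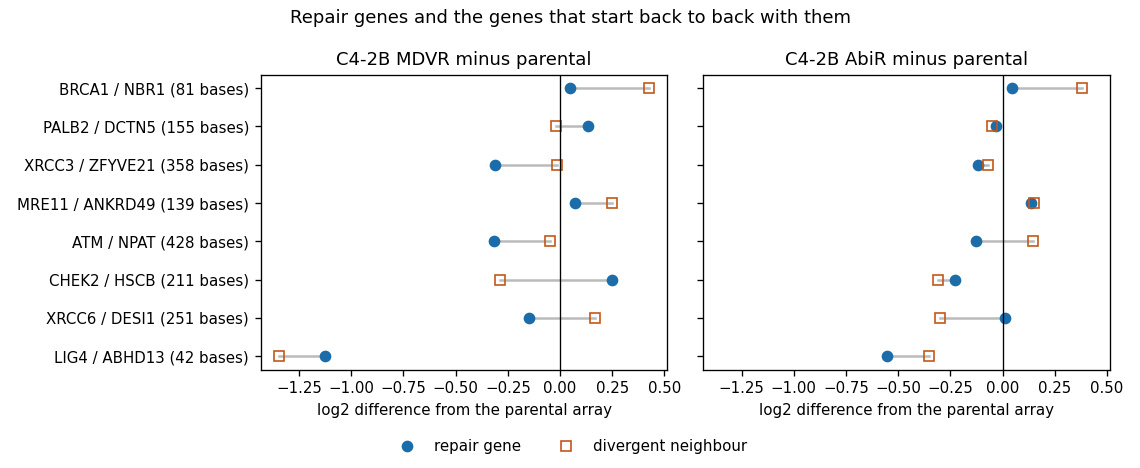
The x axis gives the log2 difference from parental cells for 8 repair genes (filled points) and the measured genes that start within 1000 bases on the opposite strand (open squares), with the distance between starts in brackets (y axis), with C4-2B MDVR at left and C4-2B AbiR at right. LIG4 and ABHD13 lie together at −1.13 and −1.34 in MDVR, to the left of every other pair.

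The other end joining genes encode the end-binding Ku subunits, XRCC5 and XRCC6, and the catalytic subunit of the DNA-dependent protein kinase, PRKDC. In MDVR all 3 were below 0, at −0.18 ± 0.46, −0.15 ± 0.18 and −0.18 ± 0.31, and in AbiR all 3 were above, at 0.10 ± 0.45, 0.013 ± 0.22 and 0.21 ± 0.23. The spread between probe sets was larger than the difference for each of the 3 genes in both lines, and the 1 probe set of XRCC5 without an _s suffix, 232633_at, was above 0 in MDVR, at 0.35. For PRKDC, probe set 208694_at was at 0.089 in parental, −0.34 in MDVR and 0.42 in AbiR cells. Probe set 210543_s_at was at 0.071 in parental, −0.21 in MDVR and 0.43 in AbiR cells. These 2 ran lowest in MDVR and highest in AbiR, and the third, 215757_at, differed by 0.16 and −0.060. Over the 4 genes the median was −0.18 in MDVR, 0.057 in AbiR and −0.34 for MDVR minus AbiR, where the median of all genes was 0.054.

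Among the damage kinases, CHEK1, which halts the cycle when replication stalls, had the lowest gene mean after LIG4 in AbiR. Probe set 205394_at was at 0.53 in parental, 0.034 in MDVR and −0.28 in AbiR cells. Probe set 205393_s_at was at 0.37 in parental, 0.23 in MDVR and −0.23 in AbiR cells. Probe set 238075_at was at 0.27 in parental, −0.058 in MDVR and −0.20 in AbiR cells. In these 3 the parental array was highest and AbiR lowest, and the fourth, 229423_at, ran the other way at −0.31 in parental, −0.080 in MDVR and 0.11 in AbiR cells. CHEK1 was therefore at −0.18 ± 0.31 in MDVR and −0.37 ± 0.55 in AbiR, with a spread that exceeded both.

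ATM, chosen for a fuller account once its values were known, was at −0.31 ± 0.44 in MDVR and −0.13 ± 0.12 in AbiR over 6 probe sets. Probe set 212672_at alone was more than 2-fold lower, at 0.049 in parental, −1.08 in MDVR and −0.049 in AbiR cells, and the other 5 lay between −0.38 and 0.079 in MDVR. All 6 were below 0 in AbiR, where the lowest was −0.34. ATR, the kinase for single-stranded DNA, was at 0.054 ± 0.14 and 0.033 ± 0.099, near 0 in both lines. Over the 4 kinase genes the medians were −0.065 and −0.18. CHEK2, the target of ATM, was at 0.25 and −0.23 by 1 probe set, which has an _s suffix. The MDVR minus AbiR value of CHEK2, 0.48, was the highest of the 33 genes.

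**Figure D3:**
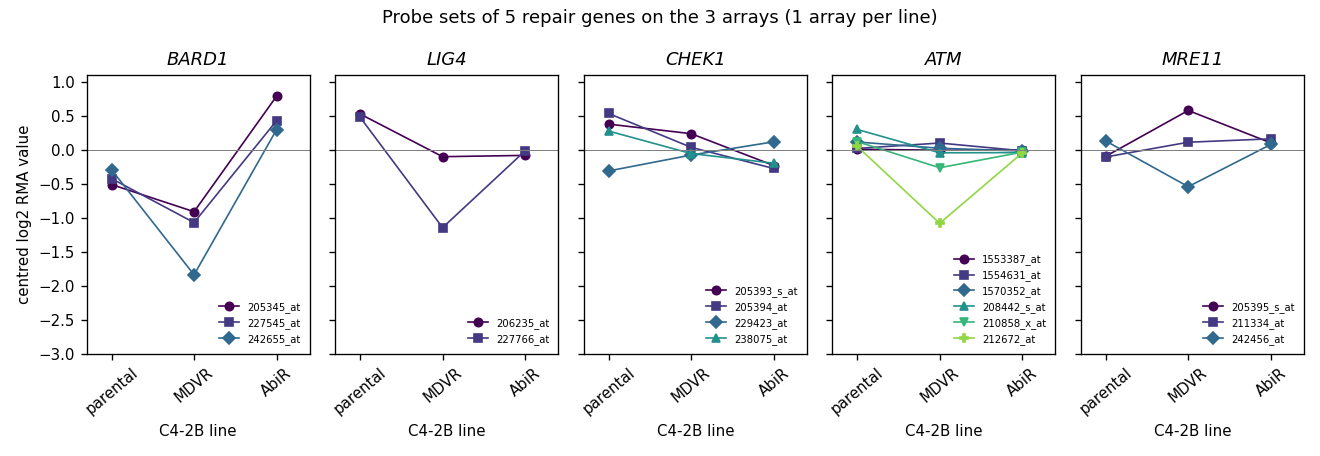
Centred log2 RMA values (y axis) are shown on the 3 arrays (x axis, 1 array per line) for every probe set of 5 repair genes, with 1 line per probe set. The 3 probe sets of BARD1 and the 2 of LIG4 keep a common direction from parental to MDVR, 1 of 6 in ATM drops to −1.08 in MDVR, and 1 probe set each of CHEK1 and MRE11 runs against the others.

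In single-strand break repair, XRCC1, the scaffold protein of this pathway, was at 0.30 in MDVR and 0.35 in AbiR by 1 probe set, the second highest value of the 33 genes in each line. PARP1, the main sensor of strand breaks and the target of PARP inhibitors, was at −0.055 and −0.14. Its relative PARP2 was at 0.00034 ± 0.045 and −0.16 ± 0.020 over 3 probe sets, which lay close together. The medians of the 3 genes were 0.00034 and −0.14. All 3 probe sets of PARP2 carry the suffix _s or _x, which marks possible reads of other transcripts. The same holds for every probe set of BRCA1, RAD51C, XRCC2, XRCC3 and CHEK2.

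Proliferation markers lay mostly below 0 and are given because many repair genes follow the cell cycle. Of 30 markers, 24 were below 0 in MDVR and 25 in AbiR, beside 42.4% and 52.4% of all genes. The medians were −0.25 and −0.20, with ranges from −1.18 to 0.32 and from −0.93 to 0.16. The lowest were the cyclin gene CCNA2 (−1.18 ± 0.26 and −0.93 ± 0.18) and the kinetochore motor gene CENPE (−1.09 and −0.81). Beside them, the 6 Fanconi genes had medians of −0.17 and −0.14, the recombination genes of 0.041 and −0.058, and the mismatch repair pair of −0.037 and −0.21. The part of proliferation in the repair gene values was not tested. The signal at the 3′ end minus that at the 5′ end, a measure of RNA integrity, differed from parental by −0.22 in MDVR and −0.12 in AbiR for ACTB, and by −0.047 and 0.061 for GAPDH. Its part was not tested either. Markers of other cell types had medians in MDVR and AbiR of 0.29 and 0.15 for 4 fibroblast genes, 0.075 and −0.094 for 3 leukocyte genes, and −0.0078 and 0.0049 for 2 endothelial genes. The 7 prostate luminal genes had medians of −0.10 and −0.13, with the lowest at −4.07 and −3.17.

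Other repair genes were read from lists outside the 36. Of 17 other recombination genes, 8 were below 0 in MDVR and 10 in AbiR, beside 42.4% and 52.4% of all genes (medians 0.024 and −0.072). RMI1, which works in a complex with BLM, was at −0.82 and −0.21, and RPA3, of the complex that coats single strands, at 0.61 and 0.021. DNA2 was at −0.53 and −0.10 and SFR1 at 0.36 ± 0.081 and 0.38 ± 0.19. The 10 other Fanconi genes had medians of 0.11 and 0.056, with 4 below 0 in each line. USP1, which removes ubiquitin from the pathway's targets, was lowest in both lines at −0.27 ± 0.086 and −0.49 ± 0.17, followed by CENPX at −0.21 and −0.47. The nuclease gene ERCC4 had the highest mean of both lines, at 0.44 ± 0.017 and 0.12 ± 0.028, followed by FAAP24 at 0.31 and 0.13.

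The 7 other mismatch repair genes had medians of −0.034 and −0.20. RFC3, a clamp loader subunit, was at −0.69 ± 0.16 and −0.51 ± 0.20, PMS1 at −0.16 ± 0.58 and −0.18 ± 0.42, RFC4 at 0.18 and −0.29, and MLH3 at −0.011 ± 0.061 and 0.11 ± 0.13. The 8 other end joining genes were at 0.027 and 0.050, with XRCC4, the partner protein of LIG4, at −0.17 ± 0.27 and −0.0098 ± 0.14. PAXX was at −0.15 and 0.021, DCLRE1C at 0.029 ± 0.18 and 0.16 ± 0.23, and POLM at 0.038 and 0.40. POLQ, a polymerase of alternative end joining singled out once its values were known, was at −0.38 ± 0.29 and 0.55 ± 0.70, with MDVR minus AbiR at −0.93 ± 0.41.

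Of 15 other damage signalling genes, 11 were below 0 in MDVR and 13 in AbiR, beside 42.4% and 52.4% of all genes. Their medians were −0.23 and −0.15. MDC1, the scaffold that gathers repair factors at a break, was at −0.83 ± 0.050 in MDVR and −0.73 ± 0.043 in AbiR. Its 2 probe sets lay close together. TIPIN was at −0.27 and −0.50, and the highest by the mean of both lines were RNF168 at 0.049 ± 0.40 and −0.088 ± 0.16 and TOPBP1 at 0.050 and −0.064. Base excision and single-strand break genes (17 measured) were at −0.099 and −0.30. The glycosylase gene NEIL3 was at −0.88 and −0.68 and PARG, which removes poly(ADP-ribose), at −0.65 and −0.33, while LIG1 was at 0.18 and 0.11 and SMUG1 at 0.22 ± 0.038 and 0.095 ± 0.29. Nucleotide excision repair genes (16 measured) were at 0.100 and 0.085, above the median of all genes in both lines. The damage-binding protein gene DDB2, a known p53 target, was at 0.73 and 0.36, ERCC1 at 0.44 ± 0.88 and 0.45 ± 0.13, ERCC8 at −0.59 ± 0.54 and −0.30 ± 0.16, and RAD23B at −0.43 ± 0.15 and 0.017 ± 0.22. On these 7 lists of other repair genes, 0 genes differed by 2-fold or more in either line, beside the shares of all genes given above.

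**Figure D4:**
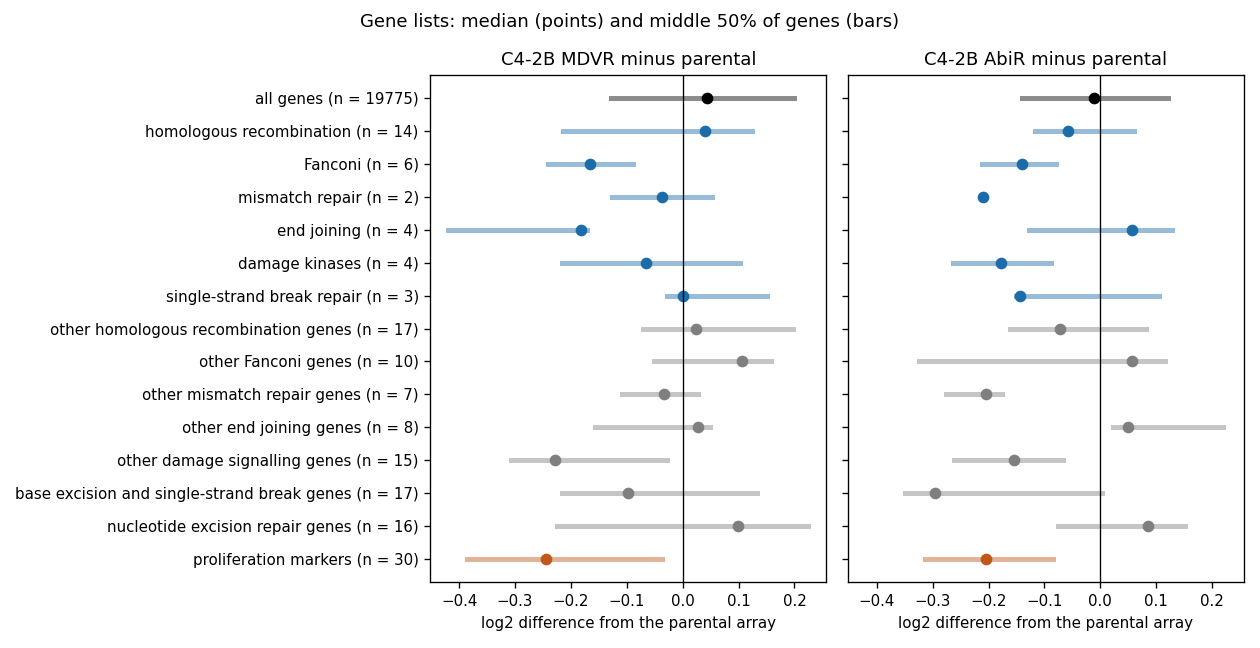
Median log2 differences from parental cells (points, x axis) and the middle 50% of genes (bars) are shown for all genes in black, repair genes by pathway in blue, other repair genes in grey and proliferation markers in orange (y axis), with C4-2B MDVR at left and C4-2B AbiR at right. Proliferation markers have the lowest median in MDVR, −0.25, and base excision genes in AbiR, −0.30, while the Fanconi median of the 6 listed genes is below 0 in both panels.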

How the data were processed

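For each of the 3 lines, C4-2B parental, MDVR and AbiR, RNA was hybridized to 1 Affymetrix HG-U133 Plus 2.0 array. The deposited values are log2 values made by the authors with RMA, whose version is not given in the sources used here. Each probe set had been centred. A median of 0 over 4 arrays is possible for 100% of the 54675 probe sets (tolerance 2e-06), but centring on the 3 arrays would also pass this check. In 53.4% of probe sets, values on a pair of the 3 arrays were equal in size and opposite in sign. The centring therefore appears to have included 1 further array, not analysed here. Levels are therefore lost. Genes came from the platform annotation (41097 probe sets with 1 symbol, 1801 with several, 11777 unnamed), of whose gene IDs 99.9% were in RefSeq GRCh38.p14.

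Differences between arrays were computed in Python 3.11.15 with pandas 2.3.3 and numpy 2.4.6, and averaged over the single-gene probe sets of a gene. A check on simulated data used large shifts and little noise, so it covers only the arithmetic. With 1 array per line there were no tests, and the number of arrays limits the precision. Values on each array are given for genes past 1.5-fold or with an SD between probe sets over 0.5. Outside this rule they are also given for some probe sets of ATM, MSH6 and PRKDC, picked with their values known. From other lists, genes past 2-fold are named, otherwise the 2 highest and 2 lowest by the mean of both lines. The repair genes, lists and motifs were chosen with earlier results of these data known. The alternatives changed the probe sets used, the gene summary, the centring of arrays and the fold threshold.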

Additional observations from a re-analysis of the deposited data

How the results depend on the processing

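Centring each array on its median or on the spiked controls moved pathway medians by at most 0.036 and 0.038, and taking the median of probe sets by at most 0.090. With the 1.5-fold threshold, 2 repair genes were lower in MDVR and 1 was higher in AbiR. When probe sets whose names end in _s_at, _x_at or _a_at were left out, 27 genes kept a value, and the damage kinase median was −0.20 in MDVR and −0.069 in AbiR, the mismatch repair median 0.069 in MDVR, −0.33 in AbiR and 0.40 for MDVR minus AbiR, the single-strand break median 0.11 in AbiR, and the Fanconi median −0.022 for MDVR minus AbiR. In MDVR 3 of the 27 genes then changed sign, RAD51D to −0.078, MRE11 to −0.23 and XRCC5 to 0.35. With shared probe sets the mismatch repair median was 0.14 in MDVR and 0.34 for MDVR minus AbiR. With the most variable probe set of each gene, the mismatch repair median was 0.20 in MDVR, −0.35 in AbiR and 0.55 for MDVR minus AbiR, the end joining median −0.47 in MDVR and −0.64 for MDVR minus AbiR, and the recombination median −0.026 in MDVR. Then 3 genes, LIG4, BARD1 and ATM, were at least 2-fold lower in MDVR than in parental, and the same 3 than in AbiR. This setting picks each probe set by its spread over the same 3 arrays, so it favours large differences by construction. The single-strand break median in MDVR, near 0, turned below 0 with either centring and with the median of probe sets, and the median of all 33 genes for MDVR minus AbiR became −0.015 when arrays were centred on their median. The cause of these changes of sign was not tested. No paired analysis was possible because each line had 1 array. Variation between cultures was not measured.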
